A study of Mus musculus with 5 samples.

Results

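The alpha and beta tubulin isotypes described here are 10 genes of 23997 in an expression table of the embryonic mouse cortex. They are Tuba1a, Tuba1b, Tuba1c, Tuba3a, Tuba3b, Tuba4a, Tuba8, Tubb2b, Tubb3 and Tubb5. These genes were picked by name with levels in this same comparison already known, those of Tuba3a and Tuba3b among them. Their values are therefore given as a description, and passing a threshold is not read as a test of them. RNA from the full cortex of C57BL/6 mice was sequenced at embryonic day 16 (E16), in 3 control and 2 conditional knockout (cKO) embryos, to find which genes change when Uhrf1 is lost from neural stem cells. Uhrf1 is a protein that brings the maintenance DNA methyltransferase to newly copied DNA. The control libraries MG15, MG16 and MG17 carry the label Uhrf1 +/-, and the cKO libraries MG18 and MG19 carry Uhrf1 -/-. Per the study, both groups carried the Emx1-Cre driver, and controls had lost 1 of the 2 Uhrf1 copies in the same cells, so no wild-type or Cre-negative cortex entered the comparison. The floxed exon 4 of Uhrf1 is removed only in the dorsal telencephalon, and cells of other origin in the dissected cortex, such as ventrally born interneurons, vessels and blood, keep the gene.

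Microtubules are polymers of a dimer made from 1 alpha and 1 beta tubulin, and mammals encode each partner in several closely related genes called isotypes. Growing neurons make very large amounts of tubulin for migration and for axons and dendrites, mostly from Tuba1a on the alpha side and from Tubb2b, Tubb3 and Tubb5 on the beta side. The Tuba3 genes are known as testis isotypes, made in male germ cells, where microtubules form the spindle, the manchette and the axoneme of the sperm tail. Levels are given as FPKM, fragment counts scaled to the length of the transcript and to the mapped fragments of the library. The unit corrects for transcript length. Comparison between isotypes is still limited here, since reads with several mapping places were removed and the isotypes differ in how much sequence is their own.

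Uhrf1 itself stood at 7.24, 13.2 and 12.95 FPKM in the controls and at 2.75 and 2.61 FPKM in cKO cortex. Both cKO libraries lay below all controls, with a log2 difference of -1.97 (SE 0.28, adjusted p = 0.00775 by limma across all genes). Summed FPKM of 10 dorsal cortex markers, Emx1 and Neurod2 among them, was 1104 to 1325 in controls and 923 to 991 in cKO. Neurod6, the most abundant of the 10, weighs most in this sum. It stood at 712, 686 and 1013 FPKM in controls and at 612 and 589 FPKM in cKO, while Neurod2 overlapped between the groups. Of the 10, 2 were above all controls in both cKO libraries and 2 below. The sum of 8 progenitor markers was 305 to 400 in controls and 254 to 257 in cKO. Of the 8, 5 were below all controls in both cKO libraries and 0 above. The sum of 10 ventral telencephalon and interneuron markers was 56.9 to 62.1 in controls and 75.0 to 94.1 in cKO. Of the 10, 6 were above all controls in both cKO libraries and 0 below. Over all genes tested, the shares were 14.5% above and 16.3% below. The sum of 5 markers of meninges and fibroblasts was 3.25 to 4.67 in controls and 8.69 to 10.3 in cKO. Of the 5, 1 was above all controls in both cKO libraries and 0 below. Dcn stood at 6.90 FPKM in MG18 and 0.997 FPKM in MG19, and Col1a1 at 0.663 and 3.19 FPKM. The sum of 7 erythroid genes was 1263 to 1593 in controls and 942 to 1085 in cKO, with 4 genes below all controls and 1 above. The sum of 6 microglia markers was 15.7 to 22.2 in controls and 23.9 to 24.4 in cKO. Of the 6, 3 were above all controls and 1, Tmem119, below. That of 5 choroid plexus genes was 0.525 to 0.884 and 0.0549 to 0.481, with 0 above and 1 below. That of 5 genes of multiciliated cells was 5.53 to 6.23 and 6.47 to 7.17, with 1 above and 0 below. The sum of 5 endothelium markers overlapped between the groups, at 71.0 to 104 in controls and 82.2 to 90.5 in cKO. Of the 5, 1 was above all controls in both cKO libraries and 0 below. Over all of these lists 1 gene, Tmem212 of the multiciliated cells, was at 0 in every library. The part of these cell types in the tubulin values below was not tested, and in bulk tissue fewer cells of a type and less RNA per cell cannot be told apart.

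Tuba3a and Tuba3b are shown first as sequence, because their near identity decides how well their reads can be told apart. Both lie on chromosome 6 of GRCm38.p6, 20.3 Mb apart. In RefSeq, Tuba3a spans 125278270 to 125286081 on the minus strand and Tuba3b 145615963 to 145621477 on the plus strand, each with 5 exons in GENCODE M21. Their coding sequences are 1350 bases long and differ at 41 bases, and the 450 residues they encode are the same. The stretch of 90 coding bases that holds the most differences, positions 274 to 363 from the start codon, differs at 11 places, which are in capitals below.
Tuba3a: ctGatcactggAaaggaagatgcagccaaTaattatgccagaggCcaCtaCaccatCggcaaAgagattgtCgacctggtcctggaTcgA
Tuba3b: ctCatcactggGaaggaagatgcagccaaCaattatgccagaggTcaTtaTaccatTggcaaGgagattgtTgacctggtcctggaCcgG
Since the authors kept only reads with a single mapping place, a read counts only where the genes differ. Of all windows of 100 bases along the Tuba3a and Tuba3b transcripts, 87.7% and 88.2% were found in no other GENCODE gene, and 174 windows were shared between these 2 transcripts. Against Tuba1a, the main neuronal alpha tubulin, the Tuba3a and Tuba3b coding sequences were 83.6% and 84.7% identical, and 10 residues differed of the 450 aligned.

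The region before the start of Tuba3a is shown because Uhrf1 acts on methylation at CG pairs. RefSeq gives a promoter window for 9 of the 10 isotypes, Tubb2b being the exception. The 250 bases before the Tuba3a start, chr6:125286082-125286331 on the minus strand, hold 8 CG pairs, in capitals below.
Tuba3a: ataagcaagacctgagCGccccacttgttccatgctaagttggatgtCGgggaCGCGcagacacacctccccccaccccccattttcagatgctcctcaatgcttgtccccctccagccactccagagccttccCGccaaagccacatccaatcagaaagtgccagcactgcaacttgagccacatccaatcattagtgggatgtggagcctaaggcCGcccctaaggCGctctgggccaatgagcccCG
At least 8 CG pairs were held by 43.0% of the 32841 RefSeq windows of this length, whose median was 6. The Tuba3b window held 14 CG pairs, a number reached by 29.4% of windows, while the other isotypes ran from 4 in Tuba1c to 35 in Tuba1b. Methylation of these sites was not measured in these libraries. The windows follow RefSeq starts. GENCODE starts some transcripts inside the window, those of Tuba3b, Tuba1a, Tuba1b, Tubb3 and Tubb4a among them, so part of these windows is transcribed in those models. The upstream windows of Tuba3a and Tuba3b were the most alike of the 91 pairs that 14 alpha and beta tubulin genes allow, with 69.2% of the 250 bases identical after alignment, against 58.8% for the next pair, Tubb3 and Tubb4a.

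The CCAAT box, a promoter element read by the factor NF-Y, was searched on both strands as CCAAT and ATTGG. It occurred 3 times in the Tuba3a window and 2 times in the Tuba3b window, and 33.9% of all windows held it at least once, 10.1% at least 2 times and 2.79% at least 3 times. It was also found 2 times before Tubb5 and once each before Tuba1a, Tuba1c and Tubb3, and not before Tuba1b, Tuba4a or Tuba8. Tubb4b, a widely expressed beta tubulin, held it 5 times. The 2 boxes that align between the Tuba3 genes are shown with the bases around them, the boxes in capitals. GENCODE starts the Tuba3b transcript upstream of the RefSeq start, so that these Tuba3b bases are transcribed in that model.
Tuba3a, chr6:125286166-125286195, minus strand: ccaaagccacatCCAATcagaaagtgccag
Tuba3b, chr6:145615862-145615891, plus strand: ccaaatttacatCCAATcagaaagtaccac
Tuba3a, chr6:125286128-125286157, minus strand: cttgagccacatCCAATcattagtgggatg
Tuba3b, chr6:145615900-145615929, plus strand: attgagccacatCCAATcgcaaaaaggacg
The matches describe letters only, and binding was not measured.

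Tuba3b was listed at 0 FPKM in MG15, MG16 and MG17, and at 7.94 FPKM in MG18 and 7.67 FPKM in MG19. The 2 cKO libraries lay close together and far from the controls, none of which held a value above 0. Tuba3a was listed at 0 FPKM in all 3 controls as well, and at 0.324 FPKM in MG18 and 0.659 FPKM in MG19. Both cKO libraries were again above the controls, but at a low level, and Tuba3b exceeded Tuba3a 24.6 times in MG18 and 11.7 times in MG19. No fold over the controls is given, since the table holds no counts from which a lower limit could be set. From the spacing of the lowest values in the table, sequencing depth was estimated very roughly at 44500000, 16500000 and 10750000 fragments in the controls and 8500000 and 10500000 in cKO cortex. Whether depth differed between the groups was not tested. At these depths 1 fragment of Tuba3b would be worth 0.0143 to 0.0591 FPKM in the controls, and the cKO values would correspond to about 106 and 127 fragments. The cKO values of Tuba3a would correspond to about 3.6 and 9.05 fragments, so that its level carries a large counting error. These depths are inferred, with 70.7% to 86.9% of 58 to 92 low values per library within 0.25 of a whole number of fragments. Each depth was picked for the highest such share among many tried, so the share is no check of it.

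**Figure D1:**
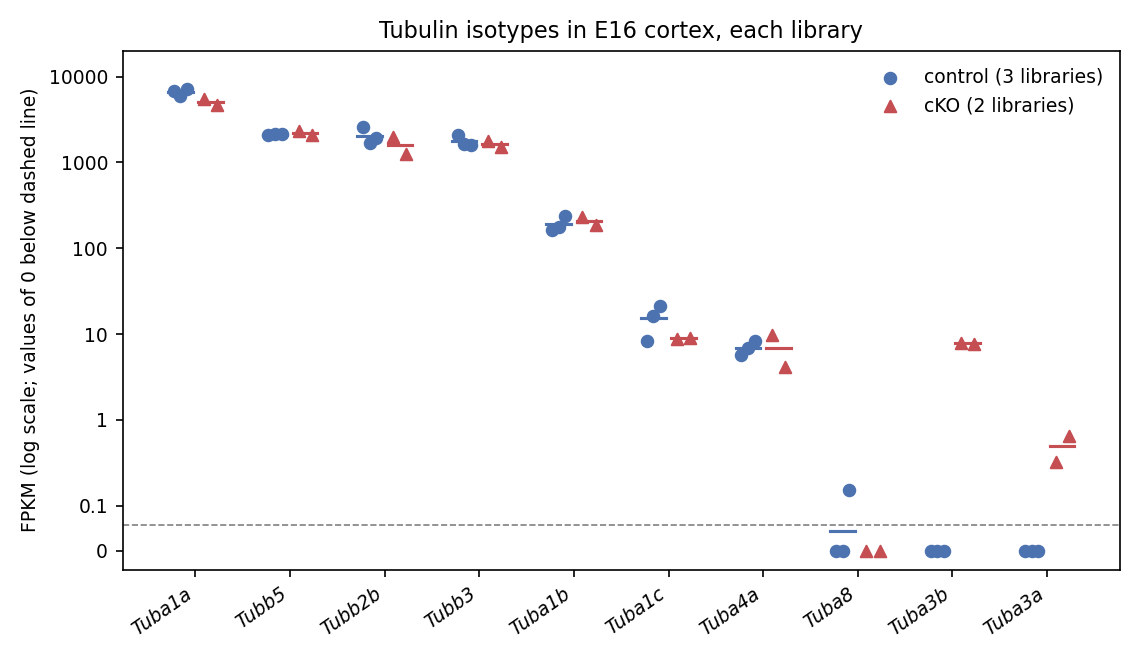
FPKM of each of the 10 isotypes in each library, on a log scale, with controls as blue circles, cKO as red triangles and group means as bars; values of 0 sit below the dashed line. Tuba3b and Tuba3a are at 0 in all 3 controls and above 0 in both cKO libraries, while Tuba1a is the highest of the 10 in all 5 libraries.

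Tuba1a, the main alpha tubulin of postmitotic neurons, stood at 6886, 5921 and 7074 FPKM in the controls and at 5444 and 4681 FPKM in cKO cortex. Both cKO libraries lay below all controls, at 76.4% of the control mean. The log2 difference was -0.39, with an SE of 0.38 that depended on the fit. The SE was 0.18 without the trend and 0.56 with no filter on low values. After quantile normalization of the libraries, a scaling that assigns each library the same set of values, the difference was -1.47. By its mean in controls Tuba1a ranked 3 among the 14697 genes tested, and its transcript shared many stretches with its neighbours on chromosome 15, with 34.2% of 100-base windows found in no other gene. The level therefore rests on part of the transcript only, as do those of Tuba1b (27.0%) and Tuba1c (46.6%).

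Tuba1b, the alpha tubulin of most dividing cells, stood at 161, 175 and 239 FPKM in the controls and at 231 and 186 FPKM in cKO cortex. The groups overlapped, with a log2 difference of 0.13 (SE 0.21). Set against Tuba1a in the same library, Tuba1b made up 2.34%, 2.96% and 3.39% of the Tuba1a level in controls and 4.24% and 3.97% in cKO. This ratio was higher in both cKO libraries than in any control, the only isotype ratio within the Tuba1 cluster computed here, and it was picked after the levels had been seen. Tuba1c, a close relative with broad expression, stood at 8.41, 16.3 and 21.4 FPKM in the controls and at 8.85 and 9.0 FPKM in cKO cortex. The controls spread widely, and the lowest control lay below both cKO libraries, so the groups overlapped (log2 difference -0.68, SE 0.33).

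Tuba4a, an alpha tubulin whose gene does not encode the final tyrosine, stood at 5.68, 6.81 and 8.38 FPKM in the controls and at 9.87 and 4.09 FPKM in cKO cortex. The 2 cKO libraries were the highest and the lowest of the 5, and the log2 difference of -0.11 (SE 0.34) became 0.52 without MG19 and -0.73 without MG18. Tuba8, an isotype of muscle and testis, was listed at 0 FPKM in 4 libraries and at 0.154 FPKM in the control MG17. With a mean under 0.1 FPKM it was left out of the test across genes. Unlike both Tuba3 genes, it was listed at 0 in both cKO libraries.

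Tubb2b, a neuronal beta tubulin needed for cortical migration, stood at 2564, 1666 and 1938 FPKM in the controls and at 1969 and 1253 FPKM in cKO cortex. The groups overlapped, and the log2 difference was -0.36 (SE 0.32). Tubb3, the neuron-specific beta tubulin recognised by the Tuj1 antibody, stood at 2061, 1629 and 1579 FPKM in the controls and at 1767 and 1533 FPKM in cKO cortex. Here too the groups overlapped, with a log2 difference of -0.08 (SE 0.27) that became 0.20 after quantile normalization. Tubb5, a beta tubulin of progenitors and neurons, stood at 2076, 2146 and 2118 FPKM in the controls and at 2308 and 2074 FPKM in cKO cortex. Its controls lay within a narrow band, with 1 cKO library above it and the other marginally below. The log2 difference was 0.05, with an SE of 0.27 that was 0.16 without the trend and 0.35 with no filter. MG19 gave the lowest of the 5 values for Tuba1a, Tubb2b, Tubb3, Tubb5 and Tuba4a. In contrast to the Tuba1 genes, Tubb3 and Tubb5 shared no 100-base window with another gene, and 72.3% of the Tubb2b windows were its own, the others being found mainly in Tubb2a.

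In order of control level, Tuba1a was 3.14 times the mean of Tubb5, and their ranges did not meet. Tubb5, Tubb2b and Tubb3 followed, and the ranges of neighbours among these 3 overlapped. Tubb3 exceeded Tuba1b 9.15 times, Tuba1b exceeded Tuba1c 12.5 times and Tuba1c exceeded Tuba4a 2.21 times, and Tuba1c was above Tuba4a in all 3 controls but in only 1 of 2 cKO libraries. In the cKO, Tuba3b joined the level of Tuba4a, with a Tuba3b to Tuba4a ratio of 0.805 in MG18 and 1.88 in MG19. These ratios compare FPKM as listed and were not corrected for the unequal part of each transcript found in no other gene.

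Among the 10 isotypes, 2 had both cKO libraries above all controls (Tuba3a and Tuba3b), 1 had both below (Tuba1a) and 7 overlapped. Over all 14697 genes tested, 14.5% had both cKO libraries above all controls and 16.3% both below. The study used cut-offs of a 2-fold change and an unadjusted p under 0.05 on Cuffdiff values. Here the same cut-offs were put on limma values of log2(FPKM + 0.1), so the counts are not those of the study. On the higher side 2 of the 9 tested isotypes passed and on the lower side 0, where 2.88% (423 genes) and 1.16% (171 genes) of all genes passed. Quantile normalization changed that split over all genes to 321 higher and 288 lower. With an adjusted p under 0.05 as the threshold, 1 isotype passed on the higher side and 0 on the lower side, against 1.1% and 0.163% of all genes. Nothing is read from these counts, since the isotypes were chosen on this contrast. Those that passed, Tuba3a and Tuba3b, were at 0 in all controls and entered the fit only through the cKO libraries. The median log2 difference of the 9 tested isotypes was -0.08, beside -0.02 over all genes. Of the tested genes, 78 were at 0 in every control, 21 of them reached at least 1 FPKM in both cKO libraries, and 5 of these were at least as high as Tuba3b in both, Tuba3b itself included.

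The summed alpha tubulin FPKM was 7061, 6119 and 7344 in the controls and 5702 and 4888 in cKO cortex. Both cKO sums lay below all controls, as did Tuba1a, which made up 96.3% to 97.5% of the sum in controls and 95.5% to 95.8% in cKO. Tuba3a and Tuba3b together made up 0 in the controls and 0.145% and 0.170% in cKO cortex, a mean of 0.158% ± 0.018 (SD, n = 2). Leaving out the abundant Tuba1a and Tuba1b, the remaining alpha tubulin amounted to 14.1, 23.1 and 29.9 FPKM in the controls and to 27.0 and 21.4 FPKM in cKO cortex. The groups overlapped in this total, but the Tuba3 genes took 30.6% of it in MG18 and 38.9% in MG19.

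**Figure D2:**
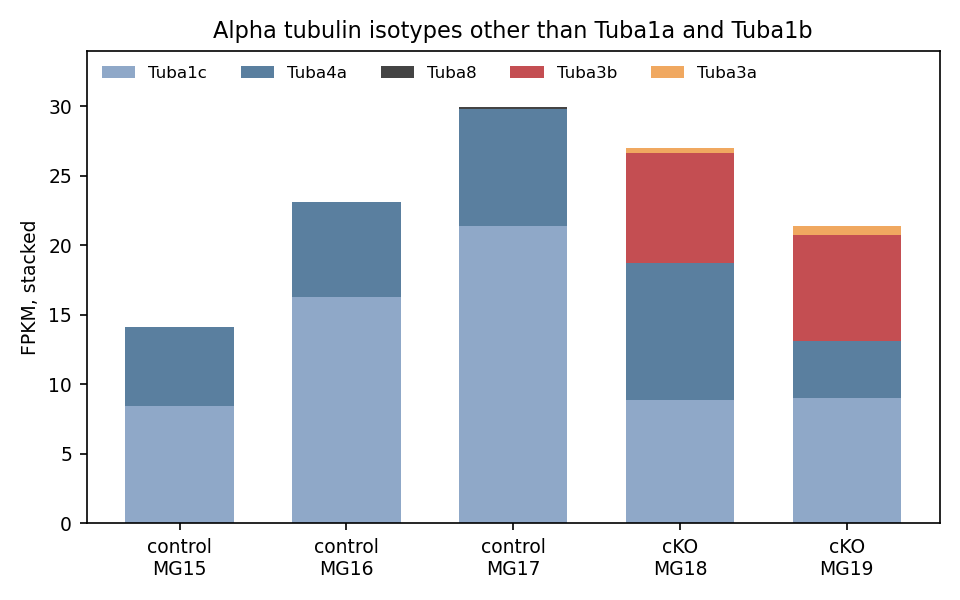
FPKM of the alpha tubulin isotypes other than Tuba1a and Tuba1b, stacked, 1 bar for each library. Tuba3b and Tuba3a appear only in the 2 cKO bars, where Tuba3b is 7.94 and 7.67 FPKM, and the totals of the 2 groups overlap.

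The summed beta tubulin FPKM was 7875, 6098 and 6422 in the controls and 6883 and 5436 in cKO cortex, with overlapping groups. Within it Tubb2b took 27.3% to 32.6% in controls and 23.0% to 28.6% in cKO, Tubb3 24.6% to 26.7% and 25.7% to 28.2%, and Tubb5 26.4% to 35.2% and 33.5% to 38.2%. Each of these 3 shares overlapped between the groups. Tubb4a, a minor beta tubulin here, took 0.199% to 0.363% in controls and 0.411% to 0.520% in cKO, with both cKO libraries above all controls. The alpha to beta ratio was 0.897, 1.003 and 1.14 in the controls and 0.828 and 0.899 in cKO cortex, again with an overlap between MG15 and MG19.

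The other tubulin genes were not chosen on their values, and limma called 0 of the 9 tested at an adjusted p under 0.05, with 2 at an unadjusted p under 0.05, a level that 11.5% of all genes tested reached in either direction. Tubd1, the delta tubulin of centrioles, stood at 4.08, 6.04 and 4.86 FPKM in the controls and at 2.67 and 3.27 FPKM in cKO cortex. Both cKO libraries were below all controls, with a log2 difference of -0.72 (SE 0.24, adjusted p = 0.299). Tubb4a, a beta tubulin of the maturing brain, stood at 15.7, 19.2 and 23.3 FPKM in the controls and at 35.8 and 22.4 FPKM in cKO cortex, and its groups overlapped (log2 difference 0.56, SE 0.24, adjusted p = 0.416). Tubb4b stood at 146, 129 and 108 FPKM in the controls and at 100.9 and 96.5 FPKM in cKO cortex, below all controls (log2 difference -0.36, SE 0.18, adjusted p = 0.471). Tubb2a, the paralog of Tubb2b, stood at 1009, 506.4 and 651 FPKM in the controls and at 699 and 453 FPKM in cKO cortex, with overlapping groups, and the coding sequences of these 2 genes are 96.5% identical. Its pseudogene Tubb2a-ps2 was listed at 612 to 727 FPKM in controls and 452 to 664 FPKM in cKO, so reads of this family may be divided among its copies. The other members overlapped between the groups: Tubb1 of platelets (0.154 to 0.593 FPKM over all libraries), Tubb6 (2.53 to 4.62), the gamma tubulins Tubg1 (7.84 to 11.8) and Tubg2 (2.85 to 4.08) and the epsilon tubulin Tube1 (2.23 to 2.93). Tubal3, an alpha tubulin-like gene, was listed at 0 in every library.

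Beyond the tubulins, the genes that fold, modify, nucleate and bind tubulin were taken from lists of their functions. With the other tubulins these lists held 115 genes in the table, of which 107 were tested. None of the 107 passed an unadjusted p under 0.05 together with a 2-fold change, none passed an adjusted p under 0.05 by limma, and 7 had an unadjusted p under 0.05, against the 11.5% of all genes. Both cKO libraries were above all controls for 11 of the 107 genes and below them for 26, against the 14.5% and 16.3% of all genes given above. The median log2 difference was -0.08.

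Folding genes had a median log2 difference of -0.29 over 22 genes tested, 20 of them negative, beside a median of -0.02 over all genes. In 13 of the 22 both cKO libraries were below all controls, against 16.3% of all genes. By limma 0 of the 22 passed an adjusted p under 0.05, or an unadjusted p under 0.05 with a 2-fold change. Cct5 and Tcp1, subunits of the chaperonin that folds tubulin and actin, had the highest levels of the list by the mean over the 5 libraries. Cct5 stood at 347, 340 and 405 FPKM in the controls and at 279 and 291 FPKM in cKO cortex, and its log2 difference was -0.35 (SE 0.18, adjusted p = 0.50). Tcp1 stood at 292, 283 and 357 FPKM in the controls and at 256 and 253 FPKM in cKO cortex (log2 difference -0.28, SE 0.18, adjusted p = 0.584). For both genes all controls lay above the cKO, but neither difference passed the test. Modifying enzymes, which add or remove tyrosine, glutamate or acetyl groups, had a median of 0.00 over 23 genes tested. Nicn1, a subunit of a polyglutamylase complex, stood at 55.8 to 61.2 FPKM in controls and 62.6 and 49.2 FPKM in cKO, and Atat1, the alpha tubulin acetyltransferase, at 36.9 to 60.8 and 57.6 and 45.2 FPKM. The groups overlapped for both genes.

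Nucleation genes had a median of -0.19 over 21 tested. Mzt1, a small subunit of the gamma tubulin ring complex, stood at 21.2, 49.0 and 89.6 FPKM in the controls and 71.4 and 79.8 FPKM in cKO cortex, and Akap9, a centrosomal and Golgi scaffold, at 47.3 to 67.3 FPKM in controls and 53.3 and 68.8 FPKM in cKO. The groups overlapped for both, and the controls of Mzt1 differed most from each other. Haus7, a subunit of the augmin complex that branches microtubules, named here after its values were seen, stood at 27.6, 18.8 and 18.4 FPKM in the controls and 12.5 and 13.5 FPKM in cKO cortex, below all controls (log2 difference -0.70, SE 0.21, adjusted p = 0.230). Binding and severing proteins had a median of 0.04 over 32 tested. Stmn1 and Stmn3, stathmins that bind free tubulin dimers, overlapped between groups, at 542 to 771 and 631 to 689 FPKM for Stmn1 and 521 to 824 and 458 to 589 FPKM for Stmn3. Map1b, a microtubule-associated protein of growing axons, also named after its values were seen, stood at 141, 187 and 136 FPKM in the controls and 222 and 220 FPKM in cKO cortex, above all controls (log2 difference 0.53, SE 0.19, adjusted p = 0.330).

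**Figure D3:**
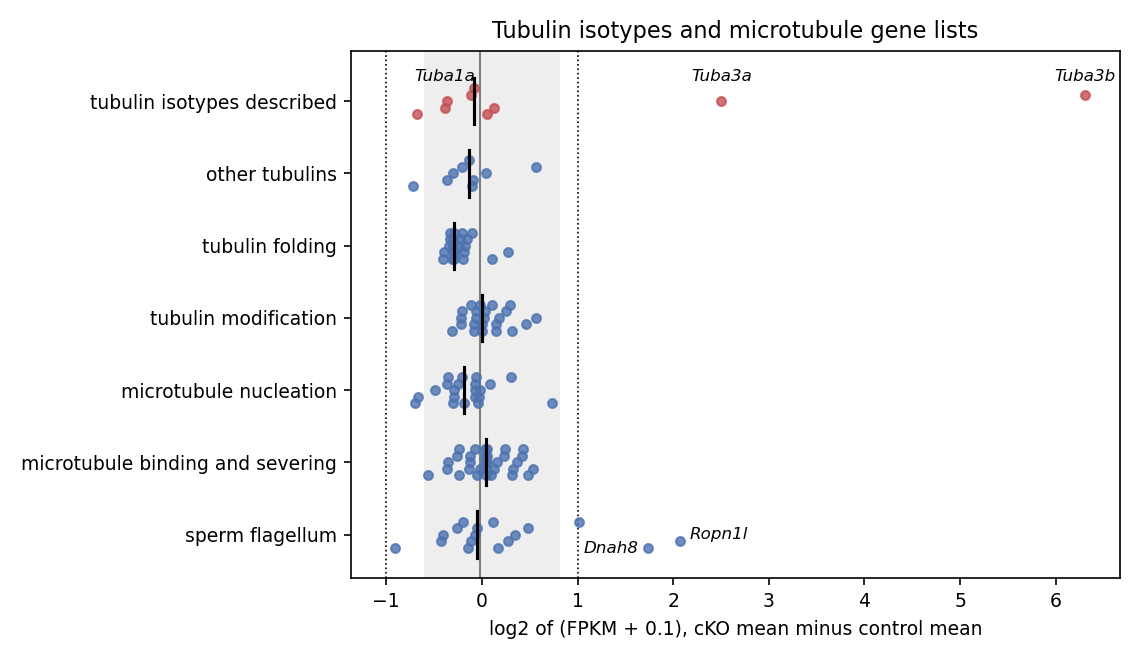
Difference of the cKO and control means of log2(FPKM + 0.1) for each tested gene, by list, with the 9 tested isotypes in red, list medians as black bars, the grey band from the 5th to the 95th percentile of all genes (-0.59 to 0.81), the grey line at the median of all genes and dotted lines at 2-fold. Tuba3a and Tuba3b lie to the right of all other tubulin and microtubule genes shown, and their position depends on the pseudocount because their controls are at 0.

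As Tuba3 is a germ cell tubulin, genes of the sperm tail and markers of male germ cells were examined in the same libraries. Of 32 sperm flagellum genes in the table, 17 were tested by limma and 0 passed an adjusted p under 0.05 in either direction. An unadjusted p under 0.05 was reached by 3 (11.5% of all genes), and 2 of these passed with a 2-fold change on the higher side (2.88% of all genes) and 0 on the lower side (1.16%). The 2 genes, Dnah8 and Ropn1l, had control means under 0.1 FPKM and entered the test only through the cKO libraries, so their passing is given as a description. Genes low in both groups were left out by the same filter, such as Tekt4, a tektin of the flagellum named after its values were seen, at 0.0223, 0.0468 and 0.143 FPKM in the controls and 0 in both cKO libraries. Spef2 was below all controls too. Hydin, Spag17 and Rsph4a were above them, with Hydin at 0.0349, 0.0377 and 0.0422 FPKM in the controls and 0.178 and 0.143 FPKM in cKO cortex. These genes were also left out by the filter and named after their values were seen. Dnah8, a heavy chain of axonemal dynein, stood at 0.0725, 0.0778 and 0.0504 FPKM in the controls and at 0.429 and 0.481 FPKM in cKO cortex. Ropn1l, a protein of the fibrous sheath and radial spoke, stood at 0.0373, 0 and 0 FPKM in the controls and at 0.178 and 0.680 FPKM in cKO cortex. Both genes were above all controls at levels under 1 FPKM. Axonemal genes are also made by multiciliated cells, and of their 5 markers Foxj1, the regulator of motile cilia, stood at 1.31, 1.10 and 1.28 FPKM in the controls and at 4.12 and 2.14 FPKM in cKO cortex. The other 4 markers overlapped between the groups or were at 0, and the part of such cells in these values was not tested.

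Of 10 spermatid markers, 7 were listed at 0 in every library, among them the protamines Prm1 and Prm2 and the transition proteins Tnp1 and Tnp2 that pack sperm DNA. Spaca1, an acrosome protein, was the 1 marker with both cKO libraries above all controls, at 0.202, 0 and 0 FPKM against 0.361 and 0.223 FPKM. The sum of the 10 was 0.376 to 0.624 FPKM in controls and 0.453 to 0.689 FPKM in cKO. Of 9 markers of spermatogonia and spermatocytes, Stra8 and Pgk2 were at 0 throughout, 1 had both cKO libraries above all controls, and the sum was 2.57 to 2.85 FPKM in controls and 2.50 to 4.89 FPKM in cKO. That gene was Sycp3, a component of the meiotic chromosome axis, named after its values were seen. It stood at 0.0355, 0.0555 and 0.141 FPKM in the controls and at 1.13 and 0.519 FPKM in cKO cortex.

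The genes next to the Tuba3 loci were read to see whether a wider region moved. Beside Tuba3a, Cd27, Mir8113 and 4930417O13Rik were listed at 0 in every library, Ltbr at 1.90 to 3.41 FPKM in controls and 2.57 and 3.28 in cKO, Scnn1a at no more than 0.0278, and Tnfrsf1a at 1.05 to 1.30 in controls and 1.94 and 1.34 in cKO. 4930417O13Rik is a noncoding RNA that lies 4.49 kb from Tuba3a in RefSeq, while its GENCODE model runs over Tuba3a on the other strand. The libraries were strand-specific, but whether FPKM were counted by strand is not given in the sources used here. Beside Tuba3b, 1700073E17Rik and Ifltd1 were listed at 0 in every library, and Gm15706, at 6.00 to 12.3 FPKM in controls and 8.0 and 7.0 in cKO, and Sspn, at 0.601 to 0.837 and 0.722 and 0.714, overlapped between groups. Rassf8, the next gene after Tuba3b at a distance of 125 kb, stood at 1.79, 1.74 and 1.16 FPKM in the controls and 2.02 and 2.18 FPKM in cKO cortex (log2 difference 0.43, SE 0.29, adjusted p = 0.592). Bhlhe41 lay above the controls too, at 0.105 to 0.192 against 0.198 and 0.234 FPKM (log2 difference 0.40, SE 0.45, adjusted p = 0.757). Of the neighbours tested, Tnfrsf1a, Rassf8 and Bhlhe41 had both cKO libraries above all controls, and Ltbr, Gm15706 and Sspn overlapped. Over all genes tested, 14.5% lay above all controls in this way. None of the neighbours tested passed either threshold.

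The genes whose profile over the 5 libraries was nearest to that of Tuba3b, by the root mean square difference of log2(FPKM + 0.1), were Pet2, Slfn4, Serpinb1c, Rpl34-ps1 and Wfdc9, with differences of 0.20 to 0.32. Pet2, on chromosome X, was at 0 in all controls and at 6.23 FPKM in both cKO libraries, and Slfn4, on chromosome 11, was at 0, 0 and 0.0236 FPKM in the controls and at 7.07 and 5.42 FPKM in cKO cortex. Serpinb1c on chromosome 13 reached 8.57 and 11.4 FPKM, Rpl34-ps1 on chromosome 6 reached 11.2 and 9.90 FPKM and Wfdc9 on chromosome 2 reached 5.99 and 11.7 FPKM in cKO cortex. The genes nearest to Tuba3a were Klrb1b on chromosome 6, Magea10, Mageb18 and Tex11 on chromosome X and Oas2 on chromosome 5, with differences of 0.09 to 0.21. These 5 were at 0 in all controls, and each was higher in MG19 than in MG18, as Tuba3a was. This likeness was the criterion of choice and was not tested.

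**Figure D4:**
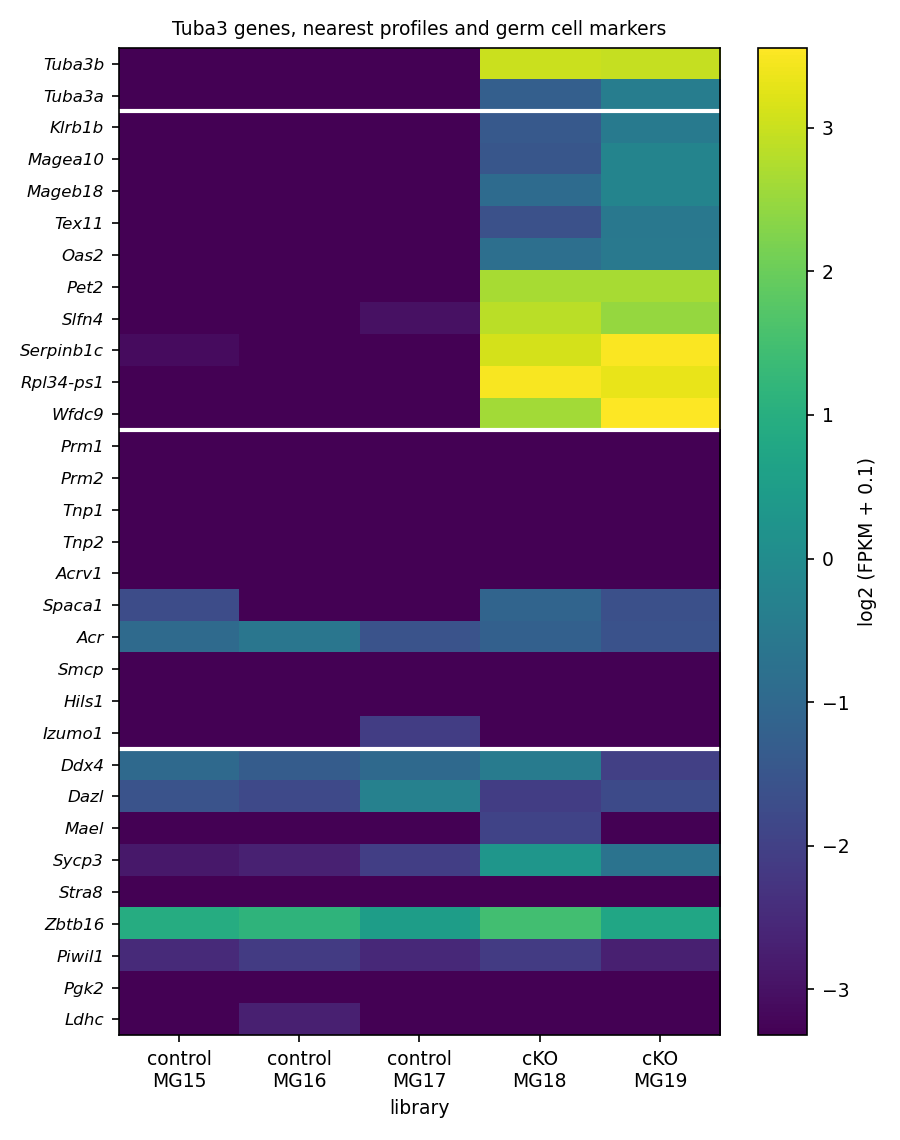
Log2(FPKM + 0.1) in each library for Tuba3b and Tuba3a (top), for the 10 genes with the nearest profiles (below them), for 10 spermatid markers (lower) and for 9 markers of spermatogonia and spermatocytes (bottom), with the darkest colour for values of 0. Tuba3b and Tuba3a are dark in the 3 controls, and 7 of the spermatid markers are dark in all 5 libraries.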

How the data were processed

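Total RNA from E16 cortex was depleted of ribosomal RNA and made into strand-specific libraries. The authors mapped paired reads to mm10 with TopHat2, removed duplicates, improper pairs, poor alignments and reads with several mapping places using samtools, and deposited FPKM per gene and library from Cuffdiff and cummeRbund. Tool versions and gene annotation: not given in the sources used here. Removing duplicates can lower the most abundant genes, Tuba1a included, and removing multiply mapped reads lowers genes with close paralogs; the size of either effect was not tested. No read counts were used here, so depth is unknown apart from the rough estimate given with Tuba3b. Groups came from the genotype labels, and columns were matched by library name.

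From the deposited FPKM, limma 3.58.1 in R 4.3.3 (lmFit, then eBayes with a trend) compared cKO with control on log2(FPKM + 0.1) with no covariate. The fit held 14697 genes, those whose mean reached 0.1 FPKM. Among 23997 genes, 1227 names of small or ribosomal RNAs were left out of the test; they took 64.7% to 87.4% of the summed FPKM in controls and 39.4% to 56.1% in cKO. Adjusted p-values are Benjamini and Hochberg values over all genes tested, and all differences are on the log2(FPKM + 0.1) scale, which understates changes of low genes. The fit was tested on simulated data. The study describes the embryos as biological replicates.

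Names were matched to RefSeq (GRCm38.p6), by symbol (22500) or synonym (1340), and 157 found no match. Promoter windows came from RefSeq and transcripts from GENCODE M21 (GRCm38), of which 141767 were searched on both strands for windows of 100 bases; unannotated sequence was not searched. Alignments used Biopython 1.88, with Python 3.11.15, pandas 2.3.3, numpy 2.4.6 and matplotlib 3.10.9.

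The isotypes, the gene lists and the thresholds were chosen with earlier results of these data known. The genes named are the isotypes, all other tubulins, in each further list up to 4 genes past an unadjusted p under 0.05 and 2-fold or else the 2 with the highest mean, the 3 table genes on each side of both Tuba3 genes, the 5 nearest profiles to each, and Uhrf1. Marker genes and genes described as named after their values were seen are exceptions. Alternatives were other pseudocounts (1 and 0.01), other filters, quantile normalization, median centring, no trend, and leaving out each library.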

Additional observations from a re-analysis of the deposited data

How the results depend on the processing

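No paired analysis was possible because no label pairs the embryos. The library titles end in a number whose meaning is not given, and an effect of litter or batch was not tested. The labels carry no replicate numbers, and those used here were given in accession order. Genes below a mean of 0.1 FPKM rest on few fragments, and 3 controls against 2 cKO libraries limit what can be seen. Over all genes, the counts higher and lower at an unadjusted p under 0.05 and 2-fold, 423 and 171, became 154 and 25 with a pseudocount of 1 and 172 and 64 among genes whose mean reached 1 FPKM, and 288 genes were lower after quantile normalization. At an adjusted p under 0.05 the counts, 161 and 24, became 100 and 13 among genes whose mean reached 1 FPKM. The higher filter tests fewer genes, and the cause of the other shifts was not tested. Leaving out each library in turn gave 389 to 561 higher and 151 to 313 lower genes, with 313 lower without MG18. It gave 34 to 133 higher and 2 to 20 lower genes at an adjusted p under 0.05, with 34 and 2 without MG18, 45 and 4 without MG19, and 10 and 11 lower without MG15 and MG16. For the tubulin pathway it gave 0 to 1 genes higher (Mzt1 without MG17) and 0 to 1 lower (Haus5, named after its values were seen, without MG19). The mean Tuba3 share of alpha tubulin ran from 0.145% to 0.170%.

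The fitted log2 differences of Tuba3a and Tuba3b were positive under every alternative that could be fitted, and Tuba3a was not tested with the filter at 1 FPKM or without MG19, where its mean fell under the filter. Their sizes depend on the pseudocount, at 0.57 and 3.14 with a pseudocount of 1 and 5.56 and 9.61 with 0.01, and give no bound. Without 1 library at a time the difference of Tuba1b ran from -0.03 to 0.30, that of Tuba1c from -1.06 to -0.39, that of Tubb2b from -0.69 to -0.04, that of Tubb3 from -0.19 to 0.04 and that of Tubb5 from -0.03 to 0.13.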
